A study of Mus musculus with 9 samples.

Results

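Mip, Lim2, Gja3, Bfsp1 and Bfsp2 encode membrane and cytoskeletal proteins of the lens fibre cell, and their transcripts were followed here in embryonic mouse lenses sequenced by RNA-seq. The genes were taken by symbol, and all 5 were present among the 7676 genes listed once in each table of the inbred wild type lens. The series held 9 libraries from lenses at 15.5 days post conception, 3 in each of 3 groups, with 30 lenses in a library. The conditional knockout (cKO) lenses were Sip1 flox/flox with the MLR10Cre transgene, on a mixed strain background, where Sip1 is the protein of the Zeb2 gene and MLR10Cre drives the Cre enzyme in epithelial and fibre cells of the lens. Mixed wild type lenses had the same floxed alleles and the same kind of background without Cre. The inbred wild type lenses came from the strain C57Bl/6<har>, with no genotype entered in the labels. The tables of the cKO and mixed wild type groups held 190 genes, of which 0 were members, so that the 5 genes were analysed in the 3 inbred wild type libraries. Neither a change of a member in cKO lenses nor the lack of one can be read from these data.

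Fibre cells make up the bulk of the lens. They elongate, lose their organelles and then rely on junctions and channels in their membranes to move water, ions and metabolites through a tissue without blood vessels. Mip (aquaporin 0) is the water channel of the fibre membrane and also serves in adhesion between fibres. Lim2 encodes a small membrane protein of the PMP22 family found in fibre junctions. Gja3 encodes connexin 46, which forms gap junction channels between fibres. Bfsp1 (filensin) and Bfsp2 (phakinin, or CP49) are divergent intermediate filament proteins that assemble with each other into the beaded filament, a cytoskeletal structure of the fibre cell. Mutations of these genes cause cataract or loss of lens clarity in humans or mice. Some inbred strains, FVB/N among them, carry a deletion in Bfsp2 and lack beaded filaments.

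The sequences directly upstream of the start sites are shown because Mip, Bfsp1, Bfsp2 and Lim2 were all among the 28 highest genes by mean RPKM in inbred wild type lenses. By the authors' other readout, a normalized value taken per kilobase, Bfsp2 ranked 66. They come from RefSeq on build GRCm38.p6, written 5′ to 3′ on the strand of the gene and ending at the base before the annotated start site. The bases that follow the start were found near the beginning of a GENCODE M21 transcript for Lim2, Bfsp1 and both Gja3 start sites. For Mip and Bfsp2 they were not, so the start sites of these genes, and positions relative to them, are uncertain. Capitals mark the letters TGCTGA, or TCAGCA on the other strand, the core of the element bound by Maf transcription factors. The windows lie at chr10:128225660-128225809 (plus strand) for Mip, chr7:43429949-43430098 (plus) for Lim2, chr2:143863174-143863373 (minus) for Bfsp1 and chr9:103449177-103449326 (minus) for Bfsp2.
Mip: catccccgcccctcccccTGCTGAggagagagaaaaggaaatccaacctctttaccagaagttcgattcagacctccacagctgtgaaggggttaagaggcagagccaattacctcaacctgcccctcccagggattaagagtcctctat
Lim2: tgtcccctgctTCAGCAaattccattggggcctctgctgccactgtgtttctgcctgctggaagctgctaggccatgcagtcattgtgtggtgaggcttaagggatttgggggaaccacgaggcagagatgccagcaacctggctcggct
Bfsp1: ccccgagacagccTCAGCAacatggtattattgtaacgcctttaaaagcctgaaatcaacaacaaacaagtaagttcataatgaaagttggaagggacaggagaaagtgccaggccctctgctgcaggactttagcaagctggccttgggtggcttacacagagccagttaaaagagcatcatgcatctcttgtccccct
Bfsp2: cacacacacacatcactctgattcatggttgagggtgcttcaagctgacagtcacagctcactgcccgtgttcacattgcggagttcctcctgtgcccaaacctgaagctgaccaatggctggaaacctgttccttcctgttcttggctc

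In the 250 bases before the start, TGCTGA was found on either strand once in Mip (positions -132 to -127 relative to the start), once in Lim2 (-139 to -134) and once in Bfsp1 (-187 to -182). Bfsp2 and both annotated start sites of Gja3 held no match. These letters occurred in 16.1% of 32851 upstream windows of the same length. The letters ACAAT, the core bound by Sox factors, were matched once each in Bfsp1 and Lim2, against 27.7% of all windows. TATAAA was matched in 1 window of Gja3, against 12.4% of all windows. GAANNTTC, a heat shock element, was matched in 0 of the members' windows and in 6.69% of all windows. A match describes the letters and is not evidence of binding.

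The expression unit was RPKM, a read count divided by exon length and library depth, as deposited by the authors, so that levels of different genes can be compared within these libraries. Mapped reads were about 25900000 to 27400000 in cKO, 38700000 to 44100000 in mixed wild type and 14100000 to 16700000 in inbred wild type, recovered from the step of a single read between low RPKM values. The inbred list had no gene with a mean below 2 RPKM. Of markers fixed for other tissues, the inbred list held 1 of 15 retinal genes (summed level 2.92 to 3.68 RPKM over the libraries), 1 of 9 pigment cell genes (2.91 to 3.25 RPKM), 0 of 14 genes of periocular mesenchyme and cornea and 2 of 12 neuronal genes (167 to 197 RPKM, mostly Uchl1, which lens also expresses). Vessel and blood markers were listed for 9 of 18 genes, at 1073 to 1110 RPKM summed and mostly globins. Of the genes that define a lens, all 16 crystallins were listed, at 292817 to 318339 RPKM summed. Lens epithelium markers were listed for 19 of 21 genes, at 4907 to 5346 RPKM summed, the highest being Cryab, also a crystallin, and Cd24a. The 3 inbred libraries differed from each other by more than sampling noise, with chi-square values of 6.97 to 16.7 per degree of freedom for their reads. The labels call the replicates independent biological ones, and no library was counted as a copy of another.

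Mip was, by RPKM, the most abundant of the 5 and the highest of all listed genes outside the crystallins. It was at 3573, 3603 and 3689 RPKM in inbred wild type replicates 1, 2 and 3 (mean 3622 ± 60.0, SD, n = 3). The libraries lay within 1.03-fold of each other. Mip ranked 14, 13 and 13 of 7676 genes in them. By mean RPKM, 12 genes were above it, and all 12 were crystallins. Next below Mip was the crystallin gene Crygn at 3392 ± 284 RPKM (SD, n = 3), and replicate 1 alone had Crygn above Mip. By the authors' normalized value per kilobase Mip ranked 18, with genes outside the crystallins above it.

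By RPKM, the beaded filament genes followed as a pair. Bfsp1 was at 1432, 1542 and 1446 RPKM in replicates 1, 2 and 3 (mean 1473 ± 60.0, SD, n = 3) and ranked 22, 21 and 22. Bfsp2 was at 1533, 1502 and 1312 RPKM (mean 1449 ± 120, SD, n = 3) and ranked 21, 22 and 24. Their ranges overlapped, and their order was not the same in every library. The Bfsp1 level was 0.93, 1.03 and 1.10 times the Bfsp2 level in replicates 1, 2 and 3. The mean log2 ratio of Bfsp1 to Bfsp2 was 0.03 (SD 0.12, n = 3), smaller than the spread between libraries. Bfsp2 was lowest in replicate 3, the library with the fewest reads.

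Lim2 lay just below the beaded filament genes in RPKM. It was at 1183, 1157 and 1079 RPKM in replicates 1, 2 and 3 (mean 1140 ± 53.9, SD, n = 3) and ranked 29, 26 and 27. Like Bfsp2, it was lowest in replicate 3. Gja3 was the lowest member in this unit, at 362, 401 and 429 RPKM in the same libraries (mean 397 ± 34.1, SD, n = 3). It ranked 89, 80 and 74, with its lowest level in replicate 1. Without the crystallins, the ranks by mean RPKM were 1 for Mip, 7 for Bfsp1, 8 for Bfsp2, 14 for Lim2 and 66 for Gja3.

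**Figure D1:**
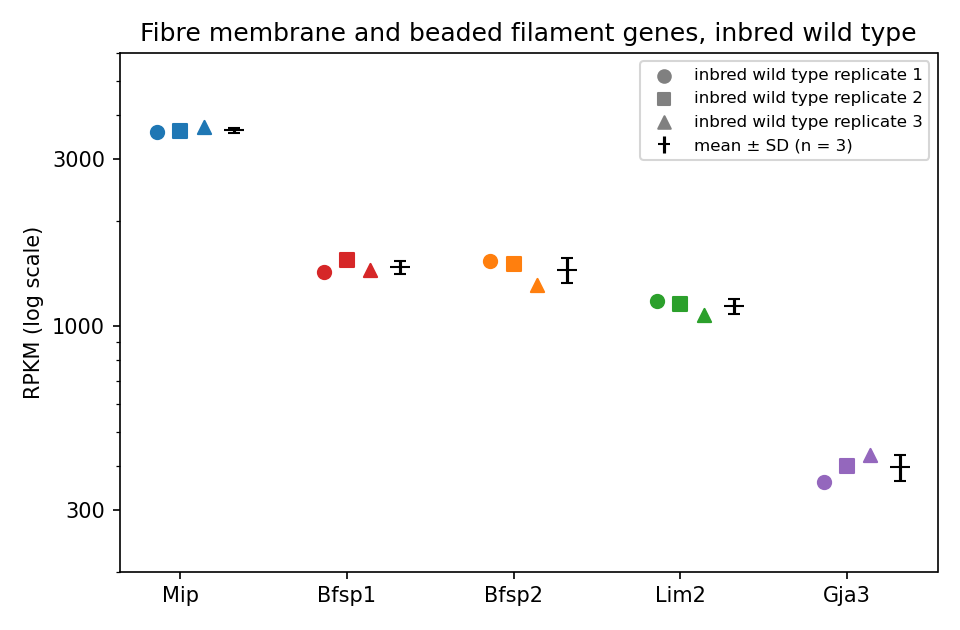
RPKM (log axis) of the 5 genes in each of the 3 inbred wild type libraries, one marker shape per replicate, with the mean and SD beside them. Mip stands alone near 3622 RPKM, Bfsp1 and Bfsp2 overlap, Lim2 sits just below them at 1140 RPKM and Gja3 is lowest at 397 RPKM.

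The order of the levels by RPKM was Mip, Bfsp1, Bfsp2, Lim2, Gja3. Of the 10 pairs of members, 9 had ranges that did not overlap and the same order in all 3 libraries, and Bfsp1 with Bfsp2 was the exception. An exact two-sided sign-flip permutation test over 3 libraries cannot go below p = 0.25. This exact test gave p = 0.25 for each of the 9 pairs (0.278 after Benjamini-Hochberg adjustment over the 10 pairs), and 0.75 for Bfsp1 against Bfsp2 (adjusted 0.75). Mip exceeded Bfsp1 2.46-fold (log2 ratio 1.30, SD 0.07, n = 3), Lim2 3.18-fold (1.67, SD 0.09) and Gja3 9.13-fold (3.19, SD 0.10). By the authors' normalized value per kilobase, a second deposited readout, these log2 ratios were 0.05 for Mip over Bfsp1, 0.53 over Lim2 and 1.91 over Gja3, and that of Bfsp1 over Bfsp2 was 2.24, so the sizes of these differences and the pairing of Bfsp1 with Bfsp2 hold for RPKM. The smallest separation among the 9 was that of Bfsp2 over Lim2, at 1.30, 1.30 and 1.22 times in replicates 1, 2 and 3. Bfsp2 over Gja3 varied most between libraries, at 4.24, 3.74 and 3.05 times. The normalized value per kilobase reversed both, with log2 ratios of -1.77 for Bfsp2 over Lim2 and -0.38 for Bfsp2 over Gja3. Their order therefore holds for RPKM.

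**Figure D2:**
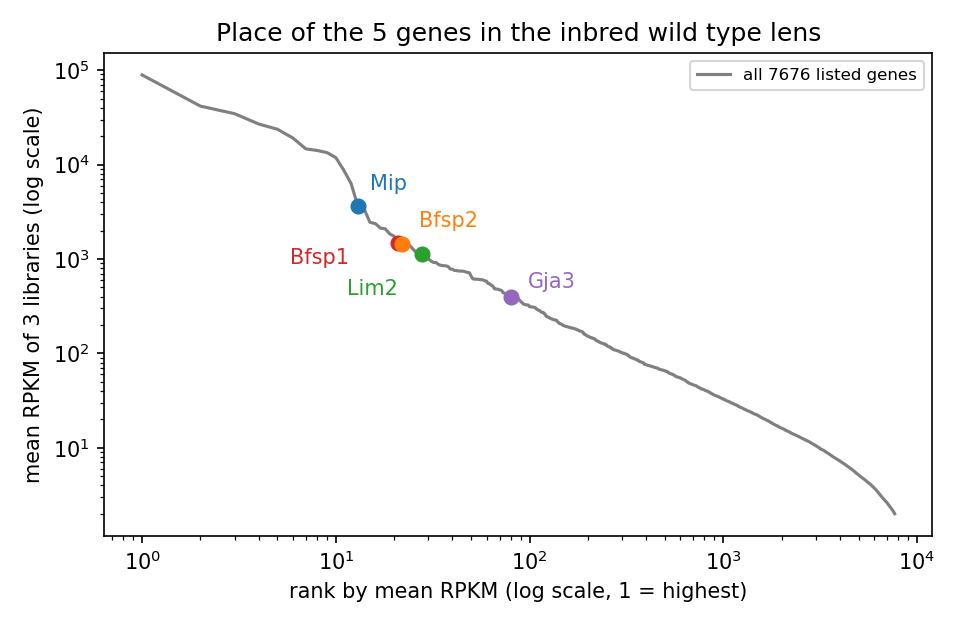
Mean RPKM of the 3 inbred wild type libraries against rank for all 7676 listed genes (both axes logarithmic), with the 5 genes marked. Mip lies at rank 13 after 12 crystallins, Bfsp1, Bfsp2 and Lim2 at ranks 21, 22 and 28, and Gja3 at rank 80.

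The members rested on many reads. RPKM, exon length and depth together gave 127854, 125918 and 111845 reads for Mip in replicates 1, 2 and 3, and 9340, 10130 and 9402 reads for Gja3. Counting error alone was therefore 0.28% to 1.03% of a member's level. The coefficient of variation between libraries was larger for each, at 1.66% for Mip, 4.07% for Bfsp1, 4.73% for Lim2, 8.27% for Bfsp2 and 8.59% for Gja3. Its median was 7.21% over all listed genes and 6.24% over the 200 highest. Mip, Bfsp1 and Lim2 thus varied less than the median gene, and Bfsp2 and Gja3 slightly more. Together the 5 genes took 1.92%, 1.95% and 1.90% of the reads of listed genes in replicates 1, 2 and 3. Crystallins took 38.4%, 38.0% and 35.3% in the same libraries. Among reads outside the crystallins the members' share was 3.12%, 3.15% and 2.93%.

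Genes nearest to a member in level and pattern were sought by the distance between log2(RPKM + 0.5) values over the 3 inbred libraries. Bfsp1 had Cd24a, a cell surface glycoprotein gene from the lens epithelium markers, as its nearest gene (distance 0.11). Bfsp2 (0.18) and the tubulin gene Tuba1a (0.24) followed. Of all listed genes, Bfsp1 was the nearest to Bfsp2. Mip had Crygn (0.26) nearest, followed at a distance of 0.98 by the elongation factor gene Eef1a1 and at 1.14 by mt-Co2, a mitochondrial oxidase subunit gene. Lim2 had mt-Atp8 (0.10), a mitochondrial ATP synthase subunit gene, the noncoding RNA gene H19 (0.27) and the ribosomal gene Rplp1 (0.32). Gja3 had Igfbp7 (0.18), which encodes a secreted IGF-binding protein, the ferritin gene Fth1 (0.20) and the actin gene Actg1 (0.24). With 3 libraries this measure mostly reflects the level.

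Measured by RPKM, the members were also the most abundant listed genes of their families. Of 12 aquaporin genes looked for, Mip was the one listed. Of 20 connexin genes, 5 were listed, led by Gja3. Gje1, a connexin gene known from the mouse lens, followed at 283, 294 and 280 RPKM, and Gja3 exceeded it by 1.28 to 1.53 times. Gja3 itself ranged over 1.19-fold between libraries and Gje1 over 1.05-fold. Gja1 (connexin 43, the connexin of the lens epithelium) was at 20.5 ± 4.73 RPKM and Gjc1 at 2.27 ± 0.09 RPKM (SD, n = 3).

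Of 8 genes of the PMP22 family, 6 were listed. Lim2 was 9.99 to 11.9 times as high as the next, Pmp22, a gene best known from peripheral myelin (106 ± 8.77 RPKM, SD, n = 3). Tmem47 (12.7 RPKM), Perp (5.05 RPKM), Nkg7 (2.36 RPKM) and Emp1 (2.23 RPKM) were lower still. Of 25 intermediate filament genes, 8 were listed. Bfsp1 was 1.91 to 2.21 times and Bfsp2 1.84 to 2.15 times as high as Vim, the vimentin gene, which encodes the other filament protein of the fibre cell (749, 698 and 714 RPKM). Ranked by the normalized value per kilobase, Vim was at 33, below Bfsp1 (20) but above Bfsp2 (66), so the lead of Bfsp2 over Vim holds for RPKM. Synm (synemin) was at 50.2 RPKM, the nuclear lamin gene Lmnb1 at 29.5 RPKM and Nes (nestin) at 13.2 RPKM. Lmnb2 was at 5.54 RPKM and Lmna at 2.57 RPKM.

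**Figure D3:**
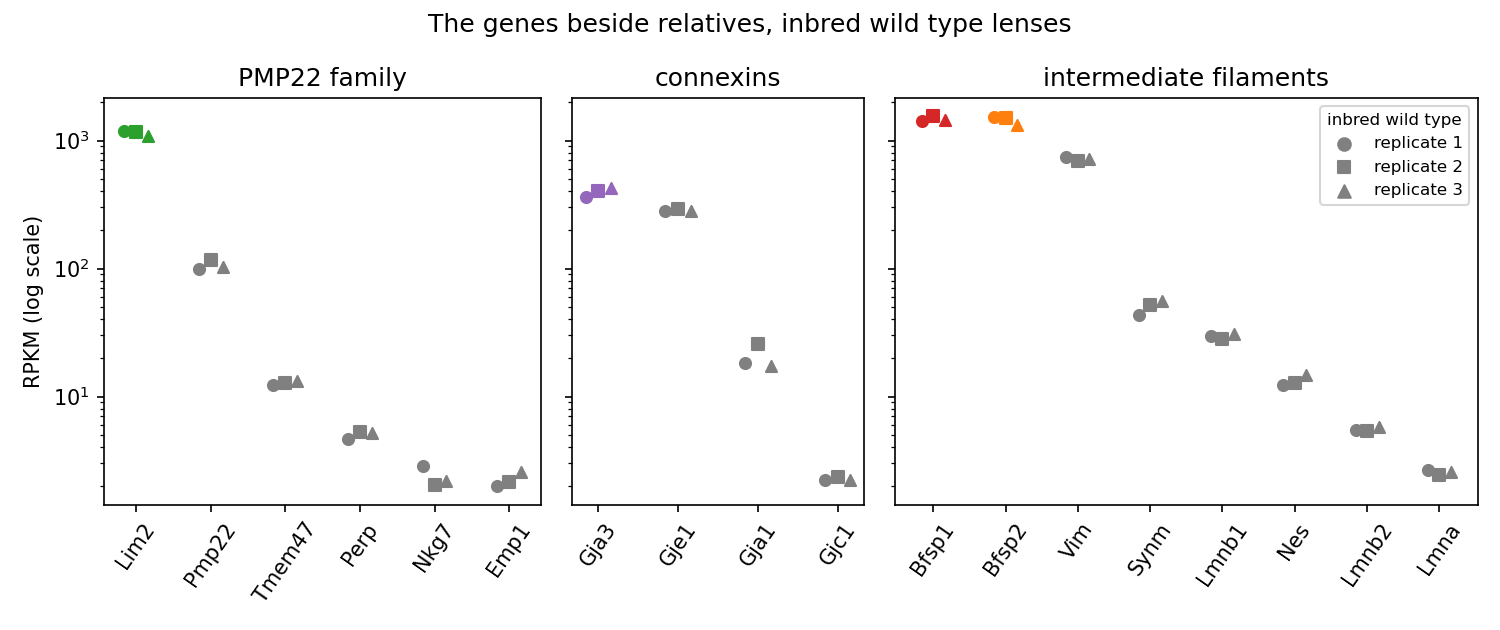
RPKM (log axis) of listed genes of the PMP22, connexin and intermediate filament families in the 3 inbred wild type libraries, one marker shape per replicate, members coloured and relatives grey. Each coloured member lies above its relatives, by 9.99 to 11.9 times for Lim2 over Pmp22, and by 1.28 to 1.53 times for Gja3 over Gje1.

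By RPKM, all genes listed from the fibre membrane skeleton and adhesion list and from the partner list were below every member. The highest of them, Ezr, came nearest to Gja3. Neither list held the crystallins or the members themselves. Of 43 genes of the fibre membrane skeleton and adhesion, 38 were listed with a median of 27.8 RPKM, against a median of 1449 RPKM for the 5 members. Ezr (ezrin, a linker of membrane to actin), at 219 ± 9.36 RPKM, was the highest, followed by the spectrin gene Spna2 (155 ± 10.3 RPKM), Ctnnb1 (beta-catenin, 142 ± 7.03 RPKM), the spectrin genes Spnb2 (89.2 RPKM) and Spnb1 (88.7 RPKM) and Epb4.1l2 (74.2 RPKM; SD over n = 3). Of 11 known partners or regulators of Mip, Lim2 and the connexins, 7 were listed. Calm3 and Calm2, which encode calmodulin, a protein that binds Mip and connexins, were at 101 RPKM and 97.3 RPKM. Caprin2 was at 153 RPKM, the junction scaffold gene Tjp1 at 74.8 RPKM and the kinase gene Prkca at 8.80 RPKM. Of 30 genes of fibre differentiation and maturation, 24 were listed. Cdkn1c, the cell cycle inhibitor of differentiating fibres, led them at 610 ± 21.1 RPKM (SD, n = 3), above Gja3 and below the other members. Tdrd7, an RNA granule gene needed for lens clarity, was at 364 RPKM, the galectin-related gene Grifin at 311 RPKM, Lenep at 232 RPKM, the glucose transporter gene Slc2a1 at 226 RPKM and Crim1 at 193 RPKM.

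The authors' other readout, a normalized expression value with no stated unit, placed the members differently. Bfsp1 had a value of 68881 and Mip of 64086 in each of the 3 libraries, places 14 and 15 in every one. For the genes looked at, a place carried the same value in every library, so these equal values show equal places only. Place 118, for example, had the value 8867 for Gje1 in replicate 1 and for Synm in replicate 3. Lim2 had 46118, 46118 and 43757, Gja3 had 11884, 12720 and 12339, and Bfsp2 had 10979, 10305 and 8404 in replicates 1, 2 and 3. These values are not scaled by length, and were therefore divided by RPKM times exon length in kilobases for each gene. The quotient was 18.7 to 20.1 for Bfsp1, 18.6 to 21.2 for Gja3 and 17.9 to 18.6 for Lim2. It was 8.10 to 8.36 for Mip and 3.98 to 4.45 for Bfsp2, against library medians of 23.5 to 25.6 over all listed genes. Mip stood at 0.34 and Bfsp2 at 0.17 of the median quotient, and 4.40% and 2.20% of listed genes had a lower one. Low quotients were also seen in other genes of high RPKM, such as Cryga (7.45), Cryge (6.06), Tuba1a (6.17) and Cryba1 (3.81). Others of high RPKM, such as Crygn (19.5) and mt-Co3 (20.2), did not have them. Divided by exon length, the normalized value ranked Mip 18, Bfsp1 20, Lim2 24, Gja3 53 and Bfsp2 66.

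**Figure D4:**
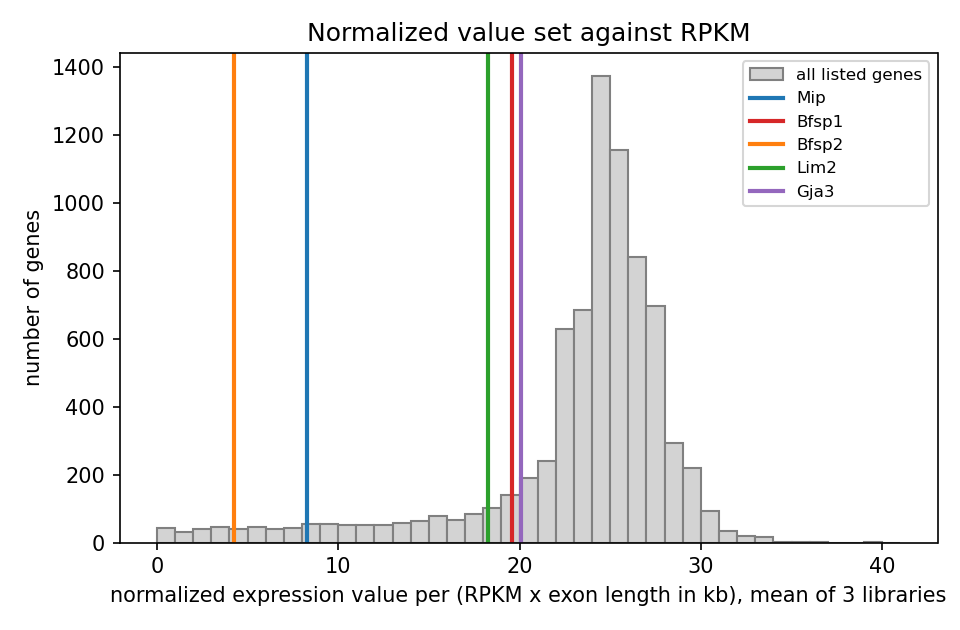
Histogram of the normalized expression value per RPKM and kilobase of exon (x axis, mean of the 3 inbred wild type libraries) over all listed genes (y axis, number of genes), with vertical lines at the members. Lim2, Bfsp1 and Gja3 lie at 18.2 to 20.1, below the peak of the histogram, while Mip (8.25) and Bfsp2 (4.23) lie far to the left.

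The members also differed in how their exons lie among other genes. In GENCODE M21 (GRCm38), 1223 of the 2144 exon bases of Mip on chromosome 10 overlap the gene Gm26847 on the opposite strand. For Bfsp2 on chromosome 9, 11.8% of exon bases overlap other genes, with 5830418P13Rik on the opposite strand sharing 10.7% of the 31-base words of its longest coding transcript. For Lim2 (chromosome 7), Gja3 (chromosome 14) and Bfsp1 (chromosome 2) no exon base overlapped another gene and 0% of such words were shared. The library kit does not mark the strand, and how the authors assigned reads in overlaps is not given in the sources used here. The RPKM of Mip and Bfsp2 may therefore hold reads of those partners and is uncertain to that extent. The part of the overlaps in the low quotients of Mip and Bfsp2 was not tested. The deposited exon length equalled the longest coding transcript for Mip (2144 bases), while for Gja3 it was 1548 bases, 56.0% of that transcript. For Lim2 it was 2182 bases, against 884 in its longest coding transcript and 2185 over all its annotated exons. RPKM divides by the deposited length, so the levels of Lim2 and Gja3, and their places among the members, hold for the deposited gene models.

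For the cKO and mixed wild type lenses, values existed for relatives and pathway genes of the members. The question was which genes of the lens respond to loss of Sip1, and whether wild types of different background differ. Zeb2, at 5.16, 5.96 and 6.31 RPKM in inbred wild type, was not among the 190 genes, and its loss in cKO was therefore not checked. Between cKO and mixed wild type, mean normalized values of all 190 genes differed by at least 2.50-fold, so calls among them are no independent evidence. Of the 144 relatives and pathway genes on the 7 lists, 10 were among the 190. Limma with Benjamini-Hochberg adjustment over all genes called 4 of the 10 higher and 6 lower in cKO at an adjusted p under 0.05, against 99.5% of all 190 genes called, 54.2% higher and 45.3% lower. The median log2 fold change on log2(RPKM + 0.5) was -1.19 for the 10 and 1.37 for all 190. In bulk lenses, fewer fibre cells and less RNA per cell cannot be told apart, and neither can loss of Sip1 and the Cre transgene. Among markers of other cell types, 3 of 18 vessel and blood genes (Tek, Hba-a2 and Hba-x) were measured, at a summed 93.2 to 152 RPKM in cKO and 400 to 541 RPKM in mixed wild type. Of 12 neuronal genes, 3 were measured (Elavl4, Stmn4 and Uchl1), at a summed 1972 to 2239 RPKM in cKO and 148 to 164 RPKM in mixed wild type. None of the retinal, pigment cell, periocular or lens epithelial markers was among the 190. Of 16 crystallins, Crygs, a fibre cell gene, was measured, at 3200, 3983 and 3991 RPKM in cKO and 370, 430 and 449 RPKM in mixed wild type, 8.95-fold higher in cKO. The part of these cell types in the values that follow was not tested.

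Pmp22, the relative of Lim2, was at 47.6, 40.8 and 42.2 RPKM in cKO libraries and at 109, 94.1 and 107 RPKM in mixed wild type libraries. All cKO libraries lay below all mixed wild type libraries (log2 fold change -1.24, SE 0.09, limma adjusted p = 1.47e-07). Among intermediate filament genes, the relatives of Bfsp1 and Bfsp2, the simple epithelial keratin genes Krt8 and Krt18 were higher in cKO, at 5.33 ± 1.11 against 0.07 ± 0.01 RPKM and at 5.27 ± 0.83 against 0.58 ± 0.24 RPKM (SD, n = 3). Of their 31-base words, 36.0% for Krt8 and 11.4% for Krt18 are shared with other genes, so both levels are uncertain. Both remained far below the levels of Bfsp1 and Bfsp2 in inbred wild type. The erythroid spectrin gene Spna1 rose 3.38-fold in cKO, to 4.85 against 1.44 RPKM in mixed wild type, and the actinin gene Actn2 fell 7.71-fold. Of 5 measured genes of fibre differentiation and maturation, 4 fell in cKO, namely Birc7, a caspase inhibitor family gene, 4.08-fold, the fibre nuclease gene Dnase2b 3.24-fold, the phospholipase gene Pla2g7 2.97-fold and Lctl 2.24-fold. The other, Lgsn, a lens gene of the glutamine synthetase family, was higher in cKO, at 3.63 against 0.06 RPKM. Shared 31-base words made up 11.9% for Lgsn, 10.6% for Lctl and 5.42% for Pla2g7, so these levels are uncertain too. Centring each library on its median lowered every log2 fold change by 0.88, to 0.59 for Spna1 and -2.12 for Pmp22, and quantile normalization gave 0.33 and -0.81, with all 10 calls and directions kept under both. Both scalings used only the 190 genes, each at least 2.50-fold apart in mean normalized values, so the kept calls are no independent evidence.

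Against inbred wild type, 7 of the list genes were measured in both tables. In mixed wild type 5 of the 7 were called higher and 1 lower than in inbred wild type, against 48.8% of 127 genes called, 30.7% higher and 18.1% lower. The share of all calls that were higher was 62.9%, against 35.7% with median centring and 49.1% with quantile normalization. Under quantile normalization 3 of the 6 calls were left. Pmp22 averaged 103 ± 8.18 RPKM in mixed wild type, against 106 ± 8.77 RPKM for inbred lenses (SD, n = 3), with overlapping libraries (limma adjusted p = 0.790). In cKO 1 of the 7 was called higher and 5 lower than in inbred wild type, against 93.7% of 127 genes called, 32.3% higher and 61.4% lower. Krt8, Lgsn and Krt18, called higher in cKO than in mixed wild type, were not among the 127. The inbred list had no gene with a mean below 2 RPKM, so genes low in wild type and high in cKO could be missing. The balance of higher and lower calls therefore cannot be read as a result. Lctl was not called, at 14.2 RPKM in cKO against 16.3 RPKM in inbred wild type, with overlapping libraries (limma adjusted p = 0.204). With median centring, 0 of the 7 were called higher and 6 lower. Pmp22 was 2.43-fold lower in cKO than in inbred wild type (limma adjusted p = 7.03e-09). These comparisons share libraries, so their results are not independent. The 127 genes were all among the 190 that differed at least 2.50-fold between cKO and mixed wild type. Calls against inbred wild type are therefore no independent evidence either.

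**Figure D5:**
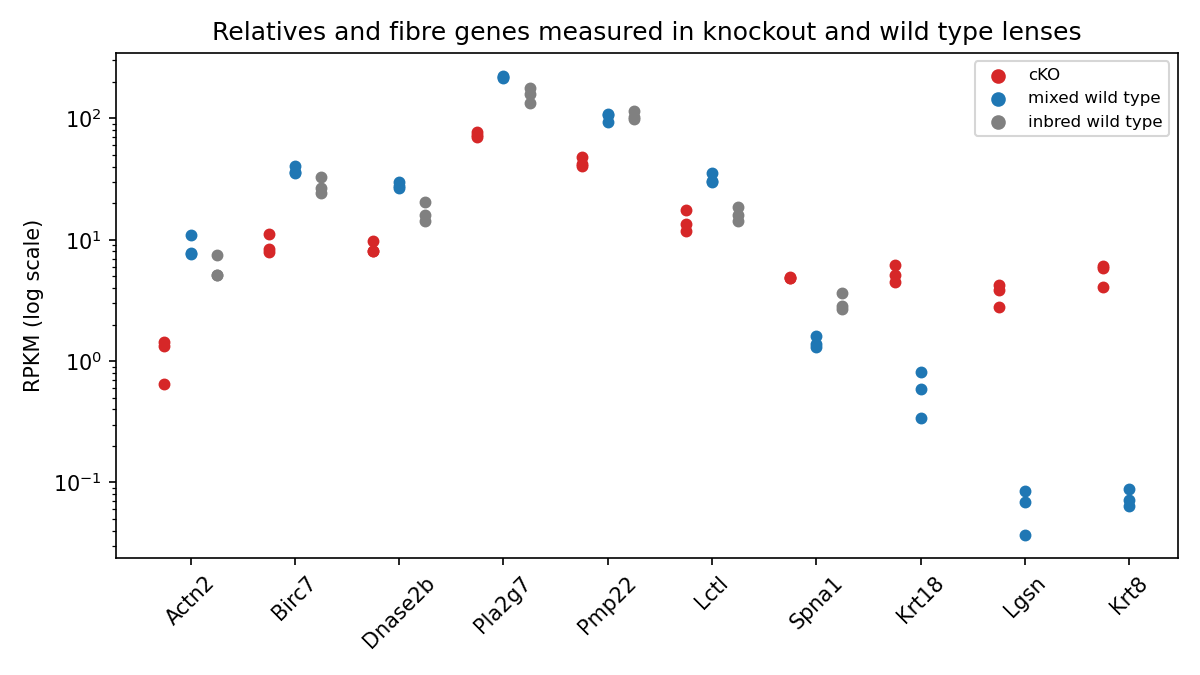
RPKM (log axis) of the 10 relatives and fibre pathway genes measured in cKO (red), mixed wild type (blue) and, where listed, inbred wild type libraries (grey), one point per library, ordered from the largest fall to the largest rise in cKO. Pmp22 lies at 40.8 to 47.6 RPKM in cKO, below both wild types, while Krt8, Krt18 and Lgsn lie above mixed wild type.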

How the data were processed

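RNA from pools of 30 lenses was sequenced in 9 libraries, 3 per group, grouped by the strain and genotype labels. The tables deposited by the authors hold, per the file headers, RPKM and a normalized expression value (a score of no stated unit) for each gene, with exon lengths for inbred lenses. The submitters' processing notes name CASAVA 1.8.2. Aligner, build and counting rule are not stated in the sources. The 24 rows with 12 repeated symbols in the inbred tables were left out, none of them a member. Reads were recovered from RPKM, exon length and the step of 1 read (100% of low values whole within 0.1 reads).

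Members were described by level, rank and paired log2 ratios with an exact sign-flip test. Group differences in log2(RPKM + 0.5) were tested by limma 3.58.1 under R 4.3.3, keeping genes whose mean reached 1 RPKM, with Benjamini-Hochberg adjustment and a threshold of 0.05. The procedure was tested on simulated data. Log2 fold changes understate changes of low genes, and folds printed are ratios of mean RPKM. Symbols joined 127 genes between the tables. Other steps used scipy 1.17.1, pandas 2.3.3 and numpy 2.4.6 under Python 3.11.15. Named besides the members were the 3 genes nearest to each by distance, up to 6 of the highest genes of each list, and list genes measured in the group comparisons, up to 8 by adjusted p (Lctl and Actn2 fell outside these 8 in the first comparison, and Tek, Hba-a2, Hba-x, Elavl4 and Stmn4 were named after their values were seen). Crygn and markers of other tissues gave the scale. Members, lists and tests were chosen with earlier results of these data known. Promoter windows came from RefSeq (GRCm38.p6), overlaps and shared words from GENCODE M21. Neither is known to be the authors' build. Some genes that the naming rule picked are not reported here.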

Additional observations from a re-analysis of the deposited data

How the results depend on the processing

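With the normalized value per kilobase in place of RPKM, the ranks were 18 for Mip, 24 for Lim2, 53 for Gja3, 20 for Bfsp1 and 66 for Bfsp2, and Bfsp2 fell below Lim2 (log2 ratio -1.77) and Gja3 (-0.38). The cause was not tested. Leaving out each inbred replicate in turn gave ranks of 21 to 22 for Bfsp1 and 21 to 24 for Bfsp2 and a log2 ratio of Bfsp1 to Bfsp2 of -0.0303 to 0.0893, negative without replicate 3. By the normalized value per kilobase that ratio was 2.24, and Mip over Bfsp1 was 0.05, over Lim2 0.53 and over Gja3 1.91, against 1.30, 1.67 and 3.19 by RPKM. Rescaling to equal totals without crystallins moved each member's mean RPKM by less than 1 SD. Leaving out 1 of 3 libraries cannot move a mean by 1 SD, so those runs do not test the means. Keeping repeated symbols moved no rank beyond its spread.

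For cKO against mixed wild type, median centring lowered log2 fold changes by 0.88 and quantile normalization by a median of 0.81, and 186 and 171 genes were called, against 189. For mixed against inbred wild type, quantile normalization left 3 of 6 list calls. Birc7, Actn2 and Dnase2b were lost there (adjusted p = 0.112, 0.0721 and 0.135), Birc7 also under median centring and without mixed replicate 3 or inbred replicate 3, and Actn2 without mixed replicate 3, inbred replicate 1 or inbred replicate 3. The log2 fold change of Pmp22 between the wild types ran from -0.0759 to 0.0351 with a library left out. For cKO against inbred wild type, Spna1 was lost under median centring (adjusted p = 0.123), and Lctl was gained there and without cKO replicate 2. Of 288 settings of single genes, 274 kept direction and call. These genes all came from the 190 that differed between cKO and mixed wild type, so the count is no independent support. The replicate number did not pair the libraries (correlations of same-numbered deviations -0.52 to 0.24). With a replicate block, 189, 46 and 119 genes were called in the 3 comparisons, against 189, 62 and 119 without. Depth did not limit the members, each with at least 9340 reads per library.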
